A study of Homo sapiens with 6 samples.

Results

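The 43 genes described here are the core machinery of macroautophagy and its cargo receptors, taken as a fixed list of symbols and matched by Entrez identifier to a table of 17563 genes with values. All 43 had values, and 42 reached the mean of 1 FPKM over the 6 libraries that was set for testing. ULK2 was the exception. FPKM are read fragments per kilobase of a gene, corrected for library size. Levels of different genes can be set side by side only roughly, as GC content and shared reads, described below, can also bear on them.

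RNA was sequenced from Ls174t, a mucin-secreting human cell line of colorectal adenocarcinoma. Vector control cells and a stable RNF186-overexpression line were each split into 3 dishes of 6 cm and collected untreated after 48 h in DMEM (10% FBS, 1% Penicillin-Streptomycin). All dishes in a group derive from 1 line, so the p-values reflect dish-to-dish spread and not the spread of separately made lines. RNF186, a RING-type ubiquitin ligase, stood at 0.69, 0.71 and 0.61 FPKM in the vector dishes and at 451.72, 577.47 and 484.61 FPKM in the RNF186 dishes, in the order of replicates 1, 2 and 3 that is kept throughout.

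Macroautophagy wraps cytoplasm in a double membrane and delivers it to the lysosome. A kinase complex around ULK1 starts the process, a lipid kinase complex around PIK3C3 marks the growing membrane, and a pair of ubiquitin-like conjugation systems fixes small ATG8 proteins to it. Cargo receptors bind both the cargo, often through ubiquitin, and the ATG8 proteins. In the intestinal epithelium the pathway is known for the handling of bacteria and for the secretion of goblet and Paneth cells, and ATG16L1 and IRGM are known susceptibility genes of Crohn's disease.

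Summed FPKM ran from 398674 to 412391 in vector and from 387478 to 396200 in RNF186 libraries. In vector libraries 11510 to 11560 genes reached 1 FPKM, and in RNF186 libraries 11631 to 11686. The groups did not overlap in either measure. All 14 markers of colorectal epithelium were tested, from KRT8 (2603.81 to 3841.88 FPKM) down to KRT20 (2.34 to 3.37 FPKM). Of these 3 were called higher and 8 lower with RNF186, or 78.6%, and their median log2 change was -0.34. Over all tested genes 38.8% were called and the median was -0.005. Of 6 retinal markers with values, examined because the extraction protocol speaks of retinas, 5 lay under a mean of 1 FPKM, and the 6 summed to 1.7 to 2.06 FPKM in vector and 1.43 to 1.67 FPKM in RNF186 libraries. Fibroblast and endothelial markers summed to at most 0.46 FPKM. The 5 leukocyte markers examined summed to 43.7 to 47.5 FPKM in vector and 42.1 to 43.5 FPKM in RNF186 libraries, most of it CD68 and LYZ, which are also known outside leukocytes. Of the 4 that were tested LYZ was called higher, CD14 and CD68 were called lower, and PTPRC did not pass at 1.81 to 2.34 FPKM, while CD3E lay at 0 to 0.04 FPKM. The part of the epithelial and leukocyte markers in the changes below was not tested. RNF186 replicate 2 stood apart from the other RNF186 dishes along the GC content of transcripts, and the members whose call changes without it are named with both values. In bulk RNA a change in the share of cells that express a gene cannot be told apart from a change in RNA per cell.

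The members that rose with RNF186 were 3 subunits of the ULK complex, 4 ATG8 genes, 3 cargo receptors, WIPI1 and VMP1, and those that fell were ATG16L1 and ATG4D of the conjugation machinery. Of the 42 tested members 12 were called higher, 2 were called lower and 28 were not called (limma, adjusted p under 0.05). Over all 11632 tested genes 38.8% were called, 19.9% higher and 18.9% lower. Among the members the shares were 33.3%, 28.6% and 4.76%, so members were called no more often than genes in general. The median change of the members was 0.01 on the log2(FPKM + 1) scale, against -0.005 over all tested genes, and the median size of the change was 0.13 against 0.14. The groups did not overlap for 20 members, or 47.6%, where the background was 49.5%. After rescaling each library to TPM, 63.1% of the calls over all genes were higher, against 51.3% without it, and the members then had 13 higher and 2 lower.

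**Figure D1:**
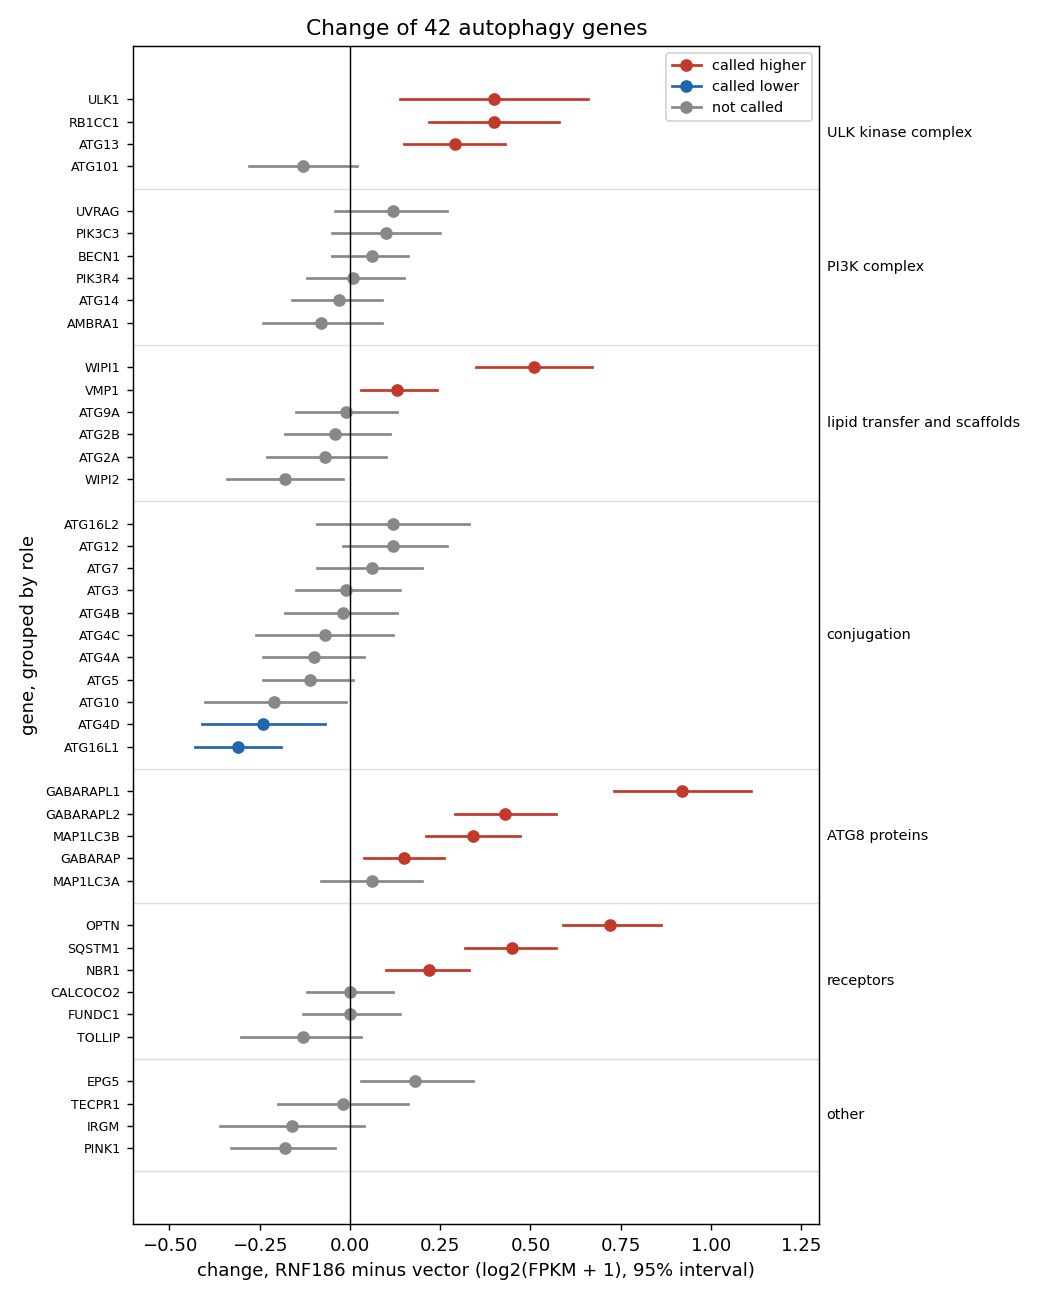
Change of each tested member between RNF186 and vector dishes on the log2(FPKM + 1) scale (x axis), with genes grouped by role (y axis); points are limma estimates and lines 95% intervals, red for called higher, blue for called lower and grey for not called. The 12 red points lie in the ULK complex, among WIPI1 and VMP1, and among the ATG8 proteins and receptors, from 0.13 for VMP1 to 0.92 for GABARAPL1.

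The largest rise belonged to GABARAPL1, an ATG8 protein of the GABARAP subfamily. It measured 7.59, 9.03 and 9.25 FPKM in vector dishes and 18.46, 15.44 and 17.8 FPKM in RNF186 dishes. Every RNF186 dish lay far above every vector dish. The means were 8.62 ± 0.902 and 17.2 ± 1.59 FPKM (SD, n = 3) and the log2 change 0.92, with a 95% interval from 0.73 to 1.11 (limma, adjusted p = 3.03e-05). GABARAPL2, another member of that subfamily, rose from 34.1, 32.37 and 37.39 FPKM to 48.09, 43.9 and 48.43 FPKM. Its log2 change was 0.43, with an interval from 0.29 to 0.57 (limma, adjusted p = 0.000657). MAP1LC3B, the LC3 protein most used as an autophagosome marker, rose as well, and again without overlap of the groups. Its values were 41.4, 36.29 and 40.59 FPKM against 50.97, 48.5 and 50.82 FPKM, a log2 change of 0.34 with an interval from 0.21 to 0.47 (limma, adjusted p = 0.00139).

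GABARAP itself was by far the most abundant of the 5 and moved least among those called. It measured 149.22, 147.21 and 142.2 FPKM in vector and 154.48, 171.42 and 160.29 FPKM in RNF186 dishes (log2 change 0.15, limma, adjusted p = 0.0386). Leaving out any 1 vector dish, or RNF186 replicate 2 or 3, ended that call (limma, adjusted p = 0.0581 to 0.127), as did the median ratio scaling (0.0636), no filter on low values (0.0599), a fit without a trend (0.0767) and the replicate block (0.0649). MAP1LC3A, the other LC3 gene on the list, did not pass. Its means were 8.17 ± 0.108 and 8.57 ± 0.583 FPKM (SD, n = 3), and its log2 change of 0.06 had an interval from -0.08 to 0.20 (limma, adjusted p = 0.495).

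Summed over the 5 ATG8 genes, the level was 241, 233 and 238 FPKM in vector and 281, 288 and 285 FPKM in RNF186 dishes. The composition differed too. GABARAPL1 made up 3.16, 3.88 and 3.89% of the sum in vector and 6.58, 5.35 and 6.24% in RNF186 dishes. GABARAP made up 62, 63.2 and 59.8% in vector and 55, 59.4 and 56.2% in RNF186 dishes, so it remained the main ATG8 transcript in each library. The level of GABARAP was 15.4 to 19.7 times that of GABARAPL1 in vector dishes and 8.37 to 11.1 times in RNF186 dishes. These shares are descriptions, and with 3 dishes against 3 an exact permutation test could not go below a two-sided p of 0.1.

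**Figure D2:**
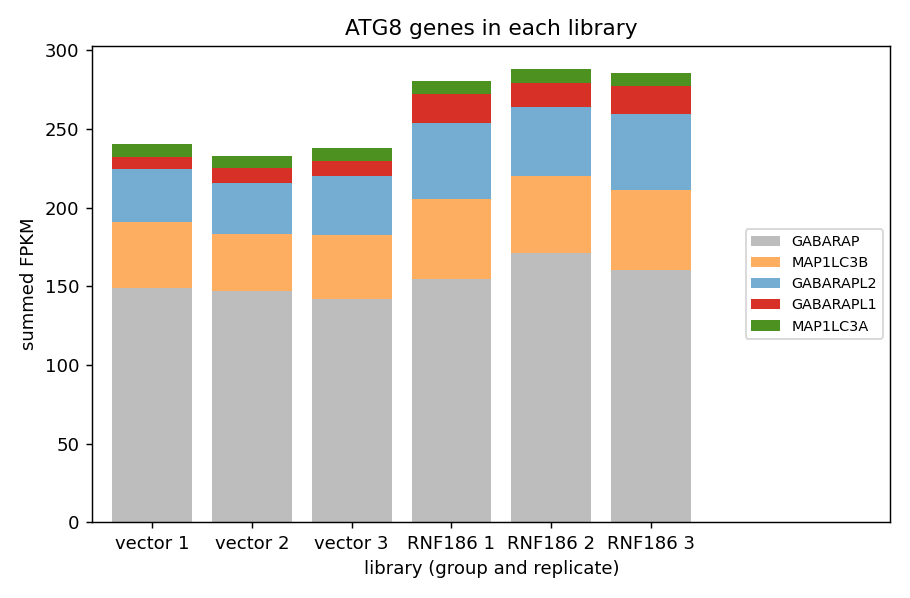
Summed FPKM of the 5 ATG8 genes (y axis) in each library (x axis), with each gene as 1 part of the stacked bar. The 3 RNF186 bars reach 281 to 288 FPKM and the 3 vector bars 233 to 241 FPKM, and the part of GABARAPL1 is larger in each RNF186 bar.

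Reads of some of these genes can be shared with others. In GENCODE release 29, 42% of the 50-base windows of the longest GABARAP transcript also occur in transcripts of other genes, 40.6% in AC120057.2 alone. For MAP1LC3B it was 6.88%, all in its near-identical copy MAP1LC3B2, and for GABARAPL1 0.979%. The sum of MAP1LC3B and MAP1LC3B2 was 44.6, 41.5 and 42.5 FPKM in vector and 52.7, 51.3 and 52.2 FPKM in RNF186 dishes, so the groups also differed without overlap for both copies summed. ATG9A shared 44.8% of its windows with AC068946.2. Of the 43 members 29 shared no window, and the authors' treatment of shared reads is not stated in the labels.

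Of the cargo receptors, OPTN, SQSTM1 and NBR1 rose, and CALCOCO2, TOLLIP and FUNDC1 did not pass. OPTN (optineurin), which links ubiquitin-coated bacteria and mitochondria to ATG8 proteins and also acts in NF-κB signalling, had the smallest p of all members. It measured 5.36, 5.82 and 5.74 FPKM in vector and 9.88, 10.19 and 9.81 FPKM in RNF186 dishes. The dishes of each group lay close together and the groups far apart. The ratio of means was 1.77 and the log2 change 0.72, with an interval from 0.59 to 0.86 (limma, adjusted p = 1.35e-05).

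SQSTM1 (p62), the best known receptor for ubiquitinated proteins and itself degraded by autophagy, had the highest mean level of the 43 members. Its values rose from 166.07, 153.5 and 150.83 FPKM to 207.11, 229.13 and 205.93 FPKM (log2 change 0.45, interval 0.32 to 0.57, limma, adjusted p = 0.000249). NBR1, a receptor related to SQSTM1 in build, rose less, from 24.01, 23 and 25.34 FPKM to 28.27, 27.12 and 29.06 FPKM (log2 change 0.22, limma, adjusted p = 0.0108). Leaving out vector replicate 2 gave an adjusted p of 0.0568 (limma), and leaving out RNF186 replicate 3 gave 0.0505. SQSTM1 stood at 26.3 to 31 times the level of OPTN in vector dishes and at 21 to 22.5 times in RNF186 dishes.

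Of the receptors that did not pass, CALCOCO2 and FUNDC1 had narrow intervals around 0. CALCOCO2 (NDP52), a receptor for bacteria, was at 21 ± 0.919 and 21 ± 0.852 FPKM (SD, n = 3), and its log2 change lay between -0.12 and 0.12. FUNDC1, a receptor in the outer mitochondrial membrane, had an interval from -0.13 to 0.14. TOLLIP, an adaptor that binds ubiquitin and Toll-like receptor signalling proteins, was at 14.7 ± 1.18 and 13.3 ± 1.00 FPKM with a log2 change of -0.13 and an interval from -0.30 to 0.03 (limma, adjusted p = 0.174). Without RNF186 replicate 2 it was called lower (-0.18, limma, adjusted p = 0.0469).

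**Figure D3:**
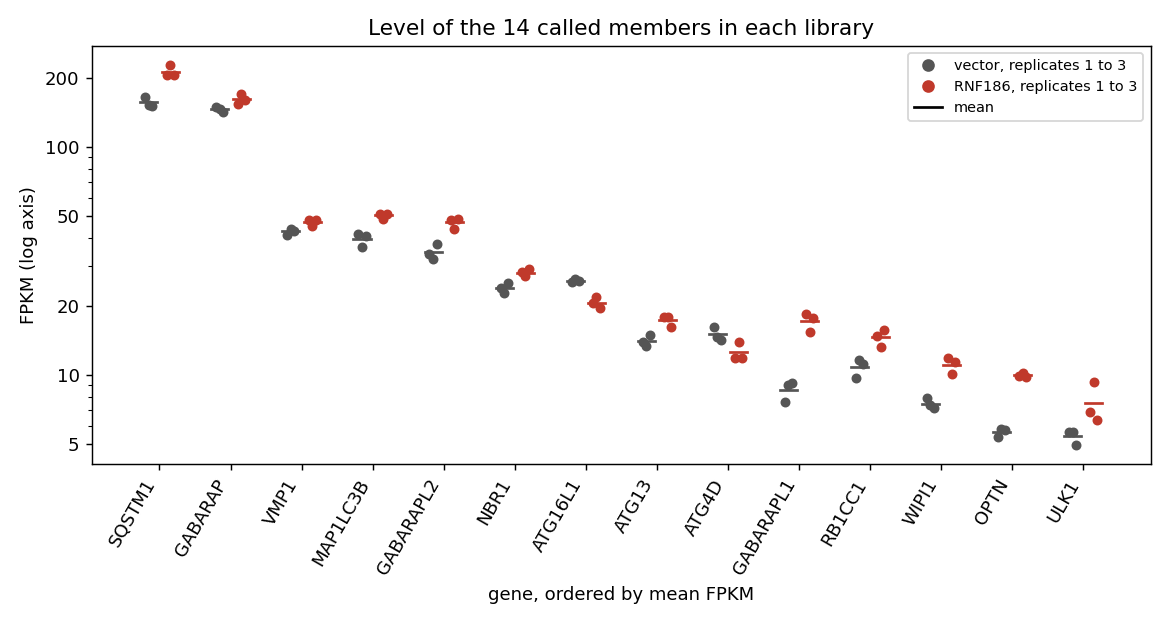
FPKM of the 14 called members (log y axis) in each library, ordered by mean level (x axis); grey points are vector and red points RNF186 dishes, and bars are group means. The groups of each of the 14 genes do not overlap, and ATG16L1 and ATG4D are the pair whose red points lie below the grey ones.

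The kinase complex that starts autophagy had 3 of its 4 tested subunits called higher, where 19.9% of all tested genes were. RB1CC1 (FIP200), its large scaffold, rose from 9.7, 11.68 and 11.14 FPKM to 14.84, 13.28 and 15.76 FPKM (log2 change 0.40, interval 0.22 to 0.58, limma, adjusted p = 0.00386). ATG13, which ties the kinase to the scaffold, rose from 13.89, 13.44 and 14.93 FPKM to 18.05, 17.93 and 16.28 FPKM (log2 change 0.29, interval 0.15 to 0.43, limma, adjusted p = 0.00546). Both were called under each of the 18 refits of the alternatives.

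ULK1, the kinase itself, measured 5.62, 5.6 and 4.95 FPKM in vector and 6.87, 9.32 and 6.36 FPKM in RNF186 dishes (log2 change 0.40, interval 0.14 to 0.66, limma, adjusted p = 0.0211). The groups did not overlap, but RNF186 replicate 2 stood well above the other RNF186 dishes. Without it the log2 change was 0.25 (limma, adjusted p = 0.0162), and without vector replicate 3 (0.0717) or without the filter on low values (0.0648) it was no longer called. ATG101, which stabilises ATG13, was at 27.4 ± 2.05 and 25 ± 1.81 FPKM and did not pass (log2 change -0.13, limma, adjusted p = 0.158). ULK2, the paralog of ULK1, was near the bottom of the measured range at 0.35 to 0.43 FPKM in vector and 0.32 to 0.43 FPKM in RNF186 dishes, and was not tested.

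None of the 6 members of the lipid kinase complex was called, against 38.8% of all tested genes, and their median change was 0.04. BECN1 (Beclin 1), the regulatory subunit, was at 44.2 ± 1.58 and 46.1 ± 1.24 FPKM (SD, n = 3), with a log2 change between -0.05 and 0.16. The catalytic subunit PIK3C3 had an interval from -0.05 to 0.25 and its partner PIK3R4 one from -0.12 to 0.15. ATG14, which directs the complex to autophagosomes, changed by -0.03 with an interval from -0.16 to 0.09. For UVRAG, its counterpart in endosomal traffic, the groups did not overlap, at 3.1, 3.16 and 3.2 FPKM against 3.74, 3.4 and 3.4 FPKM, but the change of 0.12 did not pass (limma, adjusted p = 0.203). AMBRA1, a Beclin 1 partner, had an interval from -0.24 to 0.09.

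Among the proteins that supply and shape the membrane, WIPI1 rose and its paralog WIPI2 did not pass. WIPI1, which reads the lipid made by PIK3C3, measured 7.93, 7.37 and 7.17 FPKM in vector and 11.82, 10.08 and 11.45 FPKM in RNF186 dishes, with each RNF186 dish above each vector dish. The ratio of means was 1.48 and the log2 change 0.51, with an interval from 0.35 to 0.67 (limma, adjusted p = 0.000474). WIPI2, which recruits ATG16L1 to the membrane, measured 20.45, 19.17 and 18.43 FPKM against 16.19, 18.8 and 15.96 FPKM (log2 change -0.18, limma, adjusted p = 0.0666). Vector dishes held 2.57 to 2.6 times as much WIPI2 as WIPI1, and RNF186 dishes 1.37, 1.87 and 1.39 times.

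VMP1, a lipid scramblase of the endoplasmic reticulum, went from 41.22, 43.81 and 42.84 FPKM to 47.94, 45.06 and 47.64 FPKM (log2 change 0.13, limma, adjusted p = 0.0475). This call was the least stable, and 10 of the 18 refits ended it. Among them were the removal of any 1 vector dish or of RNF186 dish 1 or 3 (limma, adjusted p = 0.0792 to 0.153), the median ratio scaling (0.0742), the replicate block (0.103) and a correction for transcript length and GC content (0.296), which took the change itself to 0.04. The lipid transfer proteins ATG2A and ATG2B and the scramblase ATG9A changed by -0.07, -0.04 and -0.01 and did not pass (limma, adjusted p = 0.498, 0.672 and 0.89).

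The conjugation machinery had 2 falls and no rise among 11 tested members, with a median change of -0.07. Of these members 18.2% were called, against 38.8% of all tested genes (18.9% lower). ATG16L1, the scaffold that places the conjugation complex on the membrane, fell from 25.63, 26.35 and 25.78 FPKM to 20.79, 21.89 and 19.63 FPKM. The vector dishes lay within 1 FPKM of each other and above each RNF186 dish. The ratio of means was 0.80 and the log2 change -0.31, with an interval from -0.43 to -0.19 (limma, adjusted p = 0.00165). ATG16L2, its paralog, did not pass at 3.25 ± 0.302 and 3.63 ± 0.497 FPKM (SD, n = 3; limma, adjusted p = 0.346), and the ratio of ATG16L1 to ATG16L2 was 7.51 to 8.78 in vector and 5.32 to 6.68 in RNF186 dishes.

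ATG4D, a protease that trims ATG8 proteins, was the other member called lower. It measured 16.18, 14.72 and 14.29 FPKM in vector and 11.92, 14.02 and 11.85 FPKM in RNF186 dishes (log2 change -0.24, limma, adjusted p = 0.0286). It was no longer called after removal of vector dish 1 or 2 or of RNF186 dish 1 or 3 (limma, adjusted p = 0.0662 to 0.107), without the filter on low values (0.062) and after the length and GC correction (0.0781), where the change was -0.09. Its relatives ATG4A, ATG4B and ATG4C changed by -0.10, -0.02 and -0.07 and did not pass (limma, adjusted p = 0.228, 0.8 and 0.532).

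None of the 5 enzymes and substrates of the conjugation steps passed, and ATG10 had the largest change among them. The E1-like ATG7 and the E2-like ATG3 changed by 0.06 and -0.01, with intervals from -0.09 to 0.20 and from -0.15 to 0.14. ATG12, the ubiquitin-like protein joined to ATG5, was at 12 ± 0.565 and 13.2 ± 0.878 FPKM (limma, adjusted p = 0.163). For ATG5 the groups did not overlap, at 21.08, 22.33 and 21.26 FPKM against 21.07, 18.74 and 19.82 FPKM, but the change of -0.11 did not pass (limma, adjusted p = 0.144). After the length and GC correction ATG5 was called lower (-0.19, limma, adjusted p = 0.00357). ATG10, the E2-like enzyme of the ATG12 step, measured 3.68, 3.33 and 3.59 FPKM against 3.22, 3.1 and 2.49 FPKM, also without overlap and without passing (log2 change -0.21, interval -0.40 to -0.01, limma, adjusted p = 0.0877). It was called lower with quantile normalization (limma, adjusted p = 0.0205), with array weights (0.0334) and after the length and GC correction (0.0233).

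The remaining 4 members did not pass. The groups of 3 of them did not overlap, as held for 49.5% of all tested genes. PINK1, the kinase that marks damaged mitochondria, was closest to the threshold, at 26.98, 24.85 and 24.72 FPKM against 21.13, 24.5 and 21.59 FPKM (log2 change -0.18, limma, adjusted p = 0.0502). It was called lower in 6 of 18 refits, over which the adjusted p (limma) ran from 0.0025 to 0.17. IRGM, an immunity-related GTPase that takes part in the removal of bacteria, was the lowest of the tested members, at 1.19, 1.17 and 1.26 FPKM against 1.16, 0.91 and 0.86 FPKM (log2 change -0.16, limma, adjusted p = 0.18). Quantile normalization alone had IRGM called lower (limma, adjusted p = 0.0442). EPG5, which helps autophagosomes fuse with lysosomes, measured 4.67, 4.44 and 5.16 FPKM against 5.65, 5.45 and 5.48 FPKM (log2 change 0.18, limma, adjusted p = 0.0612). It was called higher in 4 of 18 refits. These were TPM (limma, adjusted p = 0.0371), a fit without a trend (0.0422), array weights (0.0136) and removal of vector replicate 3 (0.0428). TECPR1, also placed at that fusion step, changed by -0.02 (limma, adjusted p = 0.868).

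Library composition moved with these values. In RNF186 replicate 2, 17 members lay above and 20 below both other RNF186 dishes. Across the 42 members, its deviation from the mean of those dishes had a Pearson correlation of 0.811 and a Spearman correlation of 0.783 with the GC content of the longest transcript. Over 11599 genes these were 0.718 and 0.739, and all points share the same library. In vector replicate 1 the same correlations over the members were 0.529 and 0.585. Vector replicate 3 deviated the other way, at -0.508 and -0.471, and vector replicate 2 stood at -0.12 and -0.114. For RNF186 replicates 1 and 3, each set against a mean that includes replicate 2, they were -0.588 and -0.54, and -0.6 and -0.633. ULK1, with 64.2% GC, deviated by 0.439 in RNF186 replicate 2, and RB1CC1, with 37.6% GC, by -0.190. Without that library 12 members were called higher and 6 lower. The added falls were ATG101 (-0.19), WIPI2 (-0.25), TOLLIP (-0.18) and PINK1 (-0.24), with adjusted p from limma of 0.0246, 0.00371, 0.0469 and 0.00323. Calls over all genes grew as well without it, to 2710 higher and 2949 lower of 11615 tested. With all libraries they were 2314 and 2195 of 11632. ATG12 was then called higher (log2 change 0.17, limma, adjusted p = 0.0295) and GABARAP was not (0.059). After removal of vector dish 1 or 2, or of RNF186 dish 1 or 3, 1 member was called lower, ATG16L1. In those fits 1432 to 1544 of all tested genes were called lower. Correcting the libraries for GC content and length of transcripts, an alternative chosen after seeing the data, left 12 members called higher and 7 lower. ATG16L1 (-0.37), ATG5 (-0.19), PINK1 (-0.20), WIPI2 (-0.19), ATG4A (-0.16), ATG10 (-0.27) and ATG14 (-0.12) were then the lower ones, and MAP1LC3A (0.22, limma, adjusted p = 0.0145) was called higher. Over all 11599 genes of that refit 2423 were called higher and 3278 lower, so lower calls became more frequent in the whole table too.

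**Figure D4:**
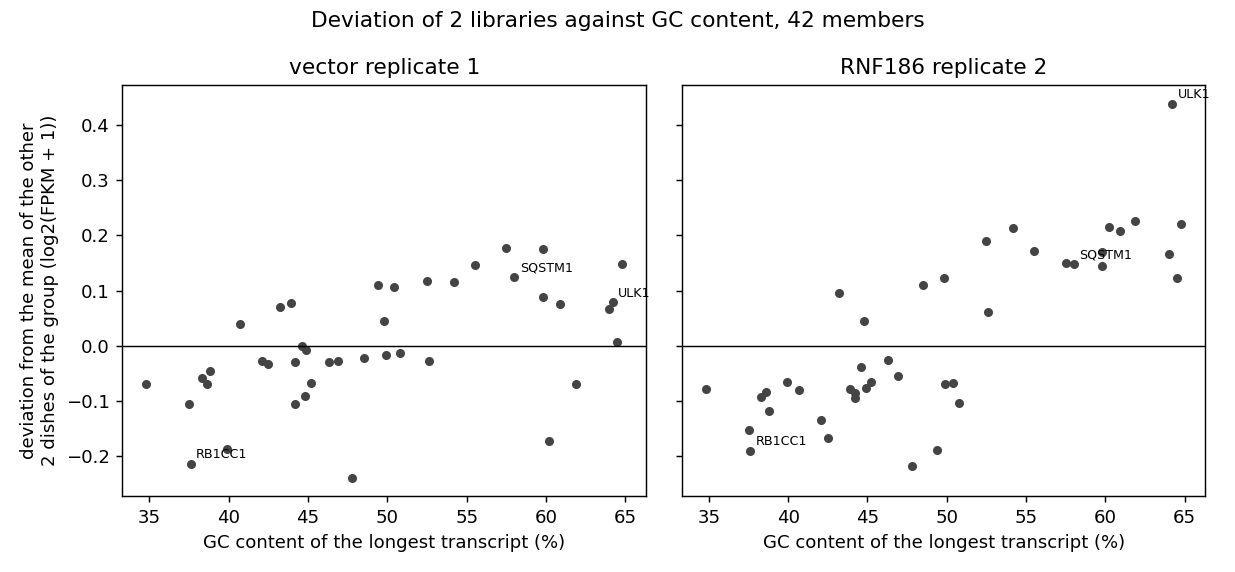
Deviation of vector replicate 1 (left) and RNF186 replicate 2 (right) from the mean of the other dishes of the same group on the log2(FPKM + 1) scale (y axis) against the GC content of the longest transcript in percent (x axis), with 1 point per tested member. In RNF186 replicate 2 members of high GC content such as ULK1 lie above 0 and members of low GC content such as RB1CC1 below it.

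The 250 bases before the annotated start were taken from RefSeq (build GRCh38.p14) for the 36 members found in the promoter table. RB1CC1, UVRAG, ATG4D, MAP1LC3A, PINK1, IRGM and EPG5 were not matched. The lines below show OPTN and GABARAPL1, the members with the largest rises, and ATG16L1, the member with the largest fall, 5′ to 3′ on the strand of the gene, at chr10:13099832-13100081 (plus strand), chr12:10212627-10212876 (plus strand) and chr2:233251423-233251672 (plus strand). Capitals mark a κB motif, the letters bound by NF-κB.
OPTN: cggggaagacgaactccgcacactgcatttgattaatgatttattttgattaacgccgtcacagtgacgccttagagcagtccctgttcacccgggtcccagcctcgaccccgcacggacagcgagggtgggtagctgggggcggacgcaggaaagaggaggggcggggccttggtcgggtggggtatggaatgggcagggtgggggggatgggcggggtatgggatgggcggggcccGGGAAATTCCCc
GABARAPL1: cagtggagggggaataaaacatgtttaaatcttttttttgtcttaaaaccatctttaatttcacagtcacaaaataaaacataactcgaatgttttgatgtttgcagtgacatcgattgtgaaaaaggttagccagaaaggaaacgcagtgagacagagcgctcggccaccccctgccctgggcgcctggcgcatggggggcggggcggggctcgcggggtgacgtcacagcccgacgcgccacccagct
ATG16L1: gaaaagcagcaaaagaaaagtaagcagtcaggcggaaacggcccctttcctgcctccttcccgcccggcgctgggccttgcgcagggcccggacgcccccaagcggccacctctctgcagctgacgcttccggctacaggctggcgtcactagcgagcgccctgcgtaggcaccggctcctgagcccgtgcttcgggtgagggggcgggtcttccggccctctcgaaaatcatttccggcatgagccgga
The 2 overlapping κB matches in OPTN span 12 to 2 bases before the start, and neither GABARAPL1 nor ATG16L1 held a match to any motif searched in this window.

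Motifs were searched on both strands and were no more than descriptions of letters. The κB motif, added after seeing the data, was found before 3 of the 36 members (OPTN, BECN1 and ATG16L2), or 8.33%, and in 5.05% of 27305 promoters of the table. Of these OPTN was called higher, and BECN1 (log2 change 0.06, limma, adjusted p = 0.36) and ATG16L2 (0.12, 0.346) did not pass. CACGTG, the core of the site of TFEB and TFE3, transcription factors of lysosome and autophagy genes, was found before 2 members (5.56%, against 6.49% of all promoters). These were ATG3 and ATG14, which did not pass the test, and both held it within the longer TCACGTG (3.38% of all promoters). GTAAACA, a FOXO motif, was found before CALCOCO2 alone (2.78%, against 2.98%). TGACNNNGC, the core bound by NRF2 and also added after seeing the data, was found before 5 members (13.9%, against 11%), ATG101, CALCOCO2, MAP1LC3B, TECPR1 and TOLLIP, and not before SQSTM1 within these bases.

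Of 72 tested genes of the pathway in 3 lists outside the 43 members, 16 were called higher and 9 lower. These 25 are 34.7% of the 72 (22.2% higher and 12.5% lower), where 38.8% of all tested genes were called (19.9% higher and 18.9% lower). Without RNF186 replicate 3 the count was 16, and without RNF186 replicate 2 it was 31. Counts over all tested genes moved the same way, from 4509 to 3140 without RNF186 replicate 3 and to 5659 without RNF186 replicate 2. In the list of other receptors 6 of 18 tested genes were called higher and 3 lower, with a median change of 0.10. CCPG1 (21.9 ± 1.10 to 28.4 ± 1.85 FPKM, limma, adjusted p = 0.00156), RETREG1 (5.44 ± 0.602 to 8.11 ± 0.798 FPKM, 0.00198) and RTN3 (126 ± 1.54 to 148 ± 3.84 FPKM, 0.00209), which are receptors for endoplasmic reticulum, rose. Of the other receptors for that organelle on the list, SEC62 rose (log2 change 0.27, limma, adjusted p = 0.0108; 0.0503 without RNF186 replicate 3), and TEX264 (-0.04, 0.721) and CALCOCO1 (0.15, 0.0693) did not pass. WDFY3 (ALFY), a scaffold for protein aggregates, was called higher (5.64 ± 0.125 to 7.47 ± 0.41 FPKM, limma, adjusted p = 0.00217). The 3 called lower were the mitochondrial receptors PHB2 (log2 change -0.30, limma, adjusted p = 0.00456) and FKBP8 (-0.35, 0.00457), and FUNDC2, the paralog of FUNDC1 (-0.17, 0.0285; 0.0634 to 0.11 on removal of any 1 library other than RNF186 replicate 2). SEC62, TEX264, CALCOCO1, PHB2, FKBP8 and FUNDC2 were named after their values were seen. In the list of membrane and fusion factors 7 of 25 were called higher and 1 lower, with a median of 0.01. The fusion SNARE STX17 (log2 change 0.37, limma, adjusted p = 0.001), TBC1D5 (0.32, 0.00595) and SH3GLB1 (0.28, 0.00622) rose, and WDR45, a relative of the WIPI proteins, fell (-0.28, 0.0034).

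In the list of nutrient control genes 3 of 29 tested genes were called higher and 5 lower, with a median of -0.03. The share called was 27.6%, against 38.8% of all tested genes. MLST8, a subunit of the mTOR complexes, fell from 24 ± 1.47 to 16.6 ± 1.93 FPKM (log2 change -0.51, limma, adjusted p = 0.000894). STK11 (LKB1), the kinase upstream of AMPK, fell from 15.5 ± 1.04 to 11.1 ± 1.49 FPKM (-0.46, limma, adjusted p = 0.00284). RRAGB, a Rag GTPase (log2 change 0.31, limma, adjusted p = 0.0061), and DDIT4, an inhibitor of mTORC1 signalling (0.22, 0.00809), rose. TFEB, named after its values were seen, was low in all libraries and did not pass, at 2.62, 2.26 and 1.93 FPKM against 1.49, 2.04 and 1.4 FPKM (log2 change -0.31, limma, adjusted p = 0.0538). It was called lower in 8 of 17 refits, among them without RNF186 replicate 2 (-0.41, limma, adjusted p = 0.0073) or vector replicate 3 (-0.39, 0.0395), with array weights (-0.38, 0.00275) and after the length and GC correction (-0.25, 0.0364). Over the 17 refits its adjusted p ran from 0.00275 to 0.18. Its relatives on the list, TFE3 and MITF, also named after their values were seen, did not pass. TFE3 was at 9.86 ± 0.455 and 10.6 ± 0.172 FPKM (log2 change 0.09, limma, adjusted p = 0.222). The length and GC correction alone had it called higher (0.0255). MITF changed by 0.04 (limma, adjusted p = 0.718).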

How the data were processed

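Values are FPKM as deposited by the authors, to 2 decimals, for 6 libraries (TruSeq RNA kit, total RNA, per the labels' protocols). Bowtie 0.12.2 and the mouse builds mm8 and mm9 are named, per the submitters' processing notes, against the human label and human Entrez identifiers, so the build behind the values is unsettled. The counting program and annotation are not given in the sources used here. FPKM hold no depth, so counting error is not stated.

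Of 19485 rows, 1 named no gene and 1921 had no value. Symbols came from RefSeq (GRCh38.p14) by Entrez identifier, with 17524 rows matched and 39 not. The 11632 genes that reached a mean of 1 FPKM were compared as log2(FPKM + 1) with limma 3.58.1 in R 4.3.3 (mean-variance trend, two-sided, no covariates, Benjamini-Hochberg over all tested genes). This scale understates changes of low genes. Called means an adjusted p under 0.05.

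Members and lists were chosen with earlier results of these data known. Every member is named; called members with separate groups get the value in each library, and up to 4 called genes of each other list are named. On simulated data for this comparison (11632 genes), calls recovered 85% of genes with a log2 change of 0.5 and 97% of those with a change of 1. The simulation changed 200 genes, none of them of low level, and drew noise independently for each gene, without deviations along GC content. It does not give the recovery of smaller changes, such as those of many members, in the real libraries. Planned protein comparisons were not made. Some planned cell type markers are not reported here. GC content and shared windows use the longest GENCODE release 29 transcript.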

Additional observations from a re-analysis of the deposited data

How the results depend on the processing

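Of the 14 called members 9 stayed called in the same direction in all 18 refits (other pseudocounts and filters, TPM, median ratio and quantile scaling, other variance models, array weights, the replicate block, each library left out, and a length and GC correction chosen after seeing the data). They were RB1CC1, ATG13, WIPI1, ATG16L1, MAP1LC3B, GABARAPL1, GABARAPL2, SQSTM1 and OPTN. ULK1, VMP1, ATG4D, GABARAP and NBR1 lost the call in some, and 12 of the 28 uncalled members gained one in some. The cause was not tested.

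Members called lower numbered 2 as reported, 1 with no filter on low values, at an adjusted p under 0.01 or with a change of at least 0.26, 4 with quantile normalization, 6 with array weights and 7 with the length and GC correction. Over all tested genes the lower calls numbered 2195 as reported and 1907 of 17087 with no filter. They were 2266 with quantile normalization, 3289 with array weights and 3278 with the length and GC correction. Leaving out 1 library gave 1 to 6 members lower, 9 to 12 members higher and a median change of the members of 0.01 to 0.03. It gave 16 to 31 called genes in the 3 other lists and 3140 to 5659 over all genes. The members' median change was 0.06 with a filter of 5 FPKM or TPM and -0.01 with the median ratio scaling. At an adjusted p under 0.01, 2586 of all genes and 16 of the other lists were called, and with a change of at least 0.26 it was 2855 and 16.

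Whether equal replicate numbers pair the dishes could not be settled from the values. The deviations of dishes with the same number correlated at -0.274, -0.0686 and 0.255. No vector dish correlated best with the RNF186 dish of its own number. Of the RNF186 dishes only replicate 3 correlated best with the vector dish of its number. Vector dish 1 and RNF186 dish 2, whose deviations both rose with GC content, correlated at 0.389. Vector dish 3, whose deviation fell with GC content, correlated at -0.375 with RNF186 dish 2. Such deviations can hide a pairing. With the replicate block 10 members were called higher and 2 lower, and 4037 of all genes were called. Depth cannot be read from FPKM, and 3 dishes of 1 line per group limit every comparison.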
